A study of Rattus norvegicus with 3 samples.

Results

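The genes transcribed in cultured ventricular myocytes of newborn rats were described from a single sample, the ethanol control of an experiment on dexamethasone (Dex), a synthetic glucocorticoid. Every gene with a value of at least 1 FPKM in that control was taken, which gave 10473 of 17450 gene rows, or 60.02%. FPKM is a count of sequenced fragments divided by transcript length and by library size, so levels of different genes can be set side by side. The rule used the control value, and the levels below are a description with no test.

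The cells came from Sprague Dawley pups aged 1 day, were freed from ventricles with collagenase and DNase, and were enriched for myocytes over a Percoll gradient and by preplating, in which non-myocytes settle first. They were plated with 10% FBS and moved to medium without serum after 24 h. The 3 groups, each 1 sample, received ethanol, 100 nM Dex for 1 h or 100 nM Dex for 24 h, and the labels give no treatment time for ethanol. Sample titles mark each group as a duplicate (X2) and do not say what was duplicated. The table holds 1 FPKM per gene and group, so no spread between replicates was computed and depth is unknown. Neither the number of pups behind a sample nor the share of myocytes among the plated cells is given in the sources used here.

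Heart muscle cells contract through sarcomeres, in which myosin heads pull on actin filaments under the control of troponin and tropomyosin. Most of these proteins come in several closely related forms encoded by separate genes, and the heart changes from fetal to adult forms around birth. The same holds for enzymes that move energy use from glucose towards fatty acids, and for channels that set pacemaking and calcium entry. Ventricular digests also hold fibroblasts, vascular cells, blood cells and epicardial cells, whose transcripts appear in the same pool.

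Among rows that carry a level, the most abundant transcript was Nppa, atrial natriuretic peptide, at 8985 FPKM. Myl2, the ventricular regulatory light chain of myosin, followed at 8776. Eef1a1, a translation elongation factor, stood at rank 3 with 6099 FPKM, ahead of the cardiac actin Actc1 at 5592 and the smooth muscle actin Acta2 at 4806. Heart muscle products thus shared the first 5 places with a smooth muscle actin and a housekeeping gene. In the files' build, rn5, Nppa lies at chr5:168466308-168467618 and Myl2 at chr12:41831136-41835806.

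The 30 highest genes fell into a few groups. Contractile list members numbered 8 of them, with Actb at 3414, Tpm1 at 2771, Ankrd1 at 2349, Tnnt2 at 2286 and Tnnc1 at 2260.4 FPKM beside the 3 named above. Ribosomal protein genes numbered 7, led by Rpl41 at 4087 and Rplp1 at 3772 FPKM, with Rps29, Rps2, Rps18 and Rplp0 between 2248 and 3426. The cytoskeletal and calcium-binding genes Tagln (3491 FPKM), Vim (2296), S100a4 (2492) and S100a6 (2162), typical of mesenchymal cells, stood there as well. So did the thymosins Tmsb4x (2553) and Tmsb10 (2534), which bind free actin, and Sparc (2833) and Ctgf (2392), secreted proteins of the matrix. Ubb, a ubiquitin gene, Ppia, a cyclophilin, and the glycolytic enzyme Gapdh lay between 2442 and 3011 FPKM.

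Both remaining places are uncertain as levels. Uqcr10, a subunit of respiratory complex III, was listed at 3655 FPKM, but its row spans only 181 bases, and FPKM of a very short row can be inflated. Mir25 was listed at 3325 FPKM and shares its locus with its host gene Mcm7, listed at 45.2. Its value was 807 at 1 h and 779 at 24 h of Dex, and it was not read as a level of the miRNA.

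Levels ranged from 1 to 8985 FPKM (Nppa). The median gene stood at 15.4 FPKM, with quartiles at 6.51 and 36.5. Of the 10473 genes, 6624 reached 10 FPKM, 958 reached 100 and 131 reached 1000. The 10 highest held 8.07% of the summed FPKM of 652814, the 100 highest 33.5% and the 1000 highest 70.5%, and 250 genes sufficed for 50%. The 88 ribosomal protein genes alone held 18.5%, with a median of 1277 FPKM, and 50 of them stood among the 100 highest. Because FPKM is per length, these are shares of transcripts and not of sequenced bases.

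**Figure D1:**
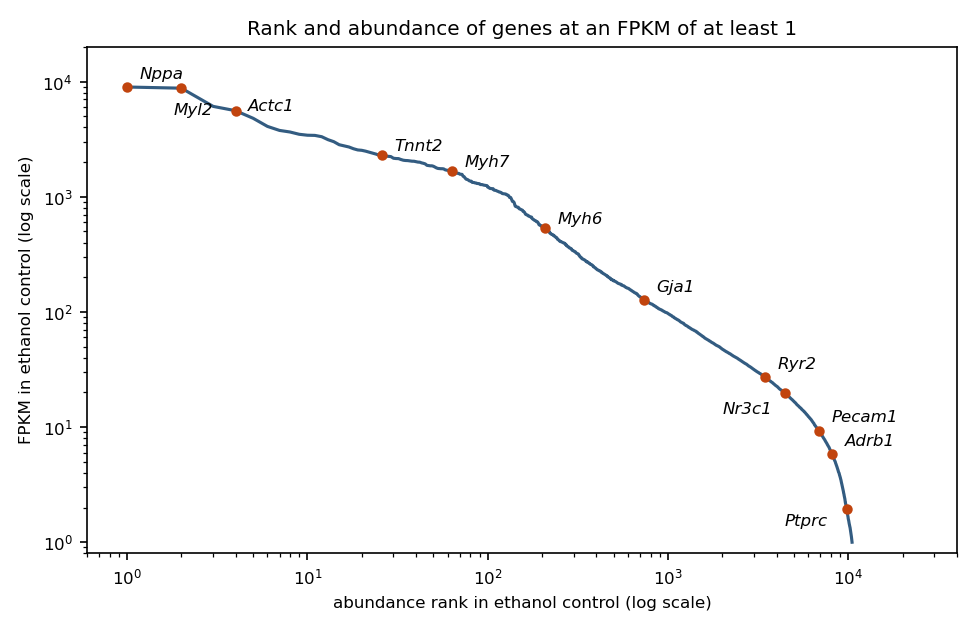
Abundance rank (x axis, log scale) against FPKM in the ethanol control (y axis, log scale) for the 10473 genes at an FPKM of at least 1, drawn as a line with named genes as points. Nppa and Myl2 stand near the top at 8985 and 8776 FPKM, while Pecam1 and Adrb1 lie at 9.33 and 5.85, where the line turns down steeply.

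At the lower edge, Gldn (1.00 FPKM), Wfdc11 (1.00) and the joined row of Col7a1 and Mir711 (1.00) lay just inside the threshold, and Mst4 (0.999), Zp2 (0.994) and Gna15 (0.994) just outside. Of the rows left out, 3542 were listed at 0 and 3435 lay above 0 and below 1. Among the genes taken, 906 shared their locus and 376 their symbol with another row, so that reads could have been split between rows. The rows listed at 0 include 5, Col1a1 among them, that are marked as having too many fragments, and these carry no level.

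The contractile, metabolic, channel and receptor lists held 383 measured genes, of which 276 reached 1 FPKM. Of these lists, the 92 with at least 2 measured members and at least 1 FPKM in sum were examined as families. In 29 of the 92 families a single member held at least 80% of the family's FPKM. Levels are those of the whole culture with its non-myocytes, and which cells carried each family member was not tested. Contractile genes were the most abundant of the 4 classes, with a median of 135 FPKM over 82 genes. The median was 19.1 over 89 metabolic genes, 2.63 over 83 receptor genes and 1.70 over 129 channel genes. The share of the highest member was much alike across classes, with medians of 62.1% in contractile, 63.4% in metabolic, 67.3% in channel and 67.5% in receptor families. Of the genes named below, Myh7b, Myh9, Myl6, Actn4, Tmod1, Lmod2, Ldb3, Slc2a3, Kcnj5, Kcnk6, Kcnip2, Cacna1h, Pln, Atp1b1, Thra, Esrra, Pparg, Bmpr1a, Col1a2 and Hbb also share their locus, symbol or row with another gene, and their levels are uncertain.

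Among the motor proteins, the slow beta myosin heavy chain Myh7 stood at 1672 FPKM and the alpha chain Myh6, which predominates in the adult rat ventricle, at 535. Myh7 therefore held 75.3% of the sarcomeric heavy chains and Myh6 24.1%. The genes are neighbours on chromosome 15 (chr15:37492598-37516191 for Myh6 and chr15:37521020-37542688 for Myh7 in rn5), and each shares its locus with a miRNA row listed at 0. Myh7b reached 6.29, embryonic Myh3 4.37 and the fast skeletal Myh1 1.25 FPKM, while Myh2, Myh4 and Myh8 stayed below 1. Non-muscle Myh9 (287 FPKM) and Myh10 (118) stood above the smooth muscle chain Myh11 (70.9).

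Ventricular forms led both families of striated muscle light chains. Myl2 held 98.5% of the striated regulatory chains, against 134 FPKM of Myl7, the atrial form. Myl3, the ventricular essential chain, stood at 1753 FPKM (80.9%), and Myl4, the atrial and fetal form, at 414 (19.1%). The share of Myl4 among essential chains was thus larger than that of Myl7 among regulatory chains. Non-muscle and smooth muscle light chains were abundant too, with Myl12a at 1301, Myl6 at 1127 and Myl9 at 989 FPKM.

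No actin held most of its family. Actc1 made up 34.4% and Acta2 29.6%, followed by the cytoplasmic actins Actb at 3414 and Actg1 at 1930.1 FPKM, with skeletal Acta1 at 268 and enteric smooth muscle Actg2 at 226. Acta2 marks smooth muscle cells and myofibroblasts, and immature heart muscle cells also make it, so its source cannot be told from a pool of cells. Among tropomyosins, Tpm1 held 47.3%, with Tpm2 at 1692, Tpm4 at 1191 and Tpm3 at 200.1 FPKM.

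The troponin complex differed by subunit. Cardiac Tnnt2 held 99.9% of troponin T, with Tnnt1 at 1.13 FPKM and Tnnt3 below 1, and Tnnc1, the form of heart and slow muscle, stood at 2260.4 FPKM against 0.161 for the fast form Tnnc2. Troponin I was shared between the adult cardiac form Tnni3, at 563 FPKM (53.1%), and the slow skeletal form Tnni1, which the fetal heart uses, at 497 (46.8%). Fast skeletal Tnni2 stood at 0.135. Troponin T and C were thus each of nearly a single form, while troponin I was a near-even mixture.

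Among structural proteins of the sarcomere, the cardiac binding protein Mybpc3 stood at 355 FPKM (97.5%) and Mybpc2, the fast skeletal form, at 8.98. The M-band proteins Myom2 and Myom1 were listed at 92.2 and 53.6, and the Z-disc protein Myoz2 at 153, 99.9% of the myozenins. Sarcomeric Actn2, at 621 FPKM, stood close to the non-muscle actinins Actn4 (556) and Actn1 (544). The actinin family therefore held muscle and non-muscle forms at similar levels.

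Several regulators of the thin filament ends and the Z-disc were spread over members. Lmod2 stood at 47.9 FPKM, Tmod1 at 45.7, Tmod3 at 35.7 and Lmod1 at 25.4, and the PDZ-LIM proteins were led by Pdlim5 (238) and Pdlim1 (204), with Pdlim7 (193) and Ldb3 (136) below. Csrp1, a LIM protein of smooth muscle, at 819.7 FPKM, stood above its striated muscle relative Csrp3 at 643. Fhl1 (531 FPKM) led Fhl2 (198), and Ankrd1, a stretch-responsive ankyrin repeat protein, was nearly alone in its family, with Ankrd23 at 0.802 and Ankrd2 at 0.104. Small heat shock proteins, which protect filaments, were led by Cryab (2108 FPKM), ahead of Hspb1 (522) and Hspb7 (405).

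**Figure D2:**
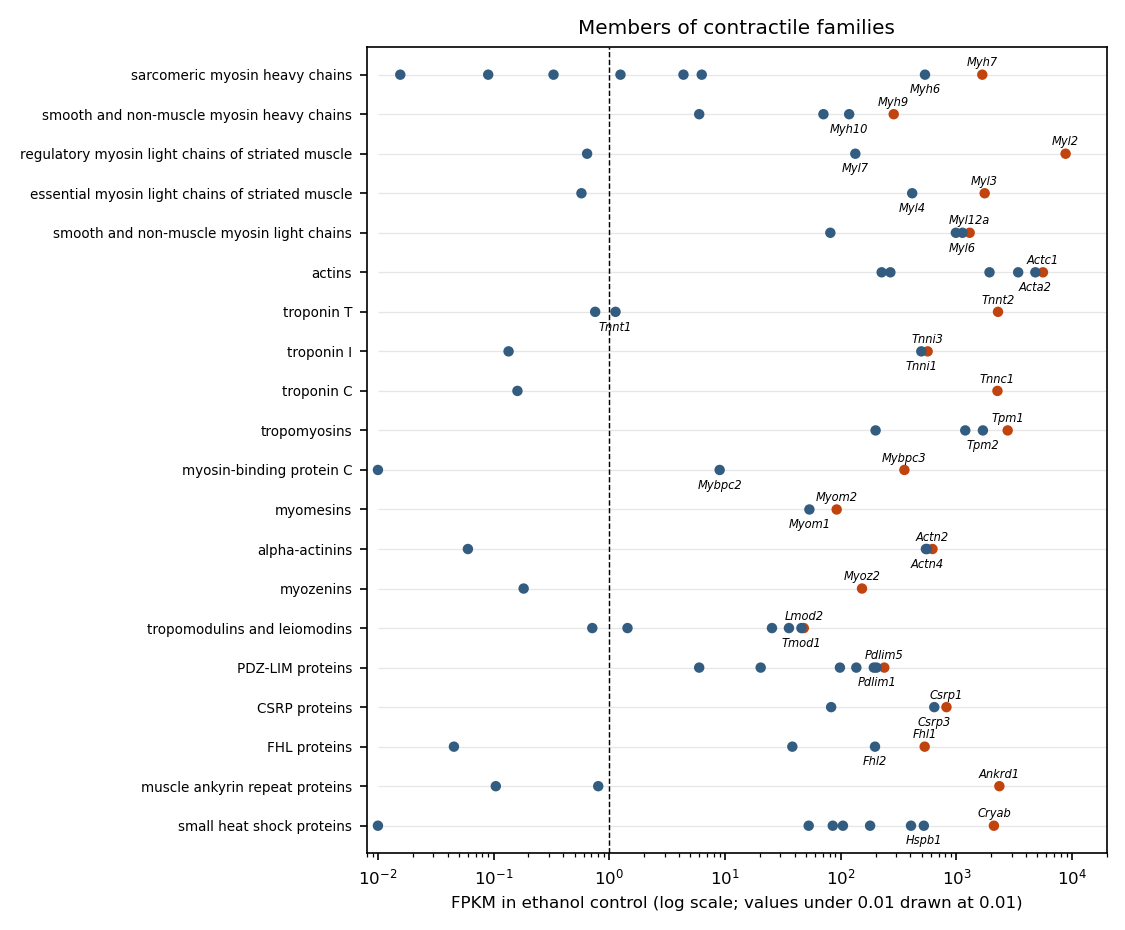
FPKM in the ethanol control (x axis, log scale) of every measured member of the contractile families (1 line per family), with the highest member in orange, the others in blue and a dashed line at 1 FPKM. Troponin T and C each show a lone member above the rest, whereas Tnni3 and Tnni1 lie side by side at 563 and 497 FPKM.

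The sequences before the start of 5 abundant genes are shown because they hold motifs often described in muscle or highly transcribed promoters, and they were chosen after the matches were seen. They are the 250 bases upstream of the start, 5′ to 3′ on the gene's strand, from RefSeq on GRCr8, a newer build than that of the expression table. Capitals mark TATAAA, on either strand, or the CArG box, a short A/T-rich element flanked by CC and GG to which serum response factor binds. Windows are Nppa at chr5:163711934-163712183 on the plus strand, Actg1 at chr10:106120952-106121201 on the minus strand, Myl3 at chr8:119616844-119617093 on the plus strand, Fhl1 at chrX:139638246-139638495 on the plus strand and Acta1 at chr19:68784195-68784444 on the minus strand.
Nppa: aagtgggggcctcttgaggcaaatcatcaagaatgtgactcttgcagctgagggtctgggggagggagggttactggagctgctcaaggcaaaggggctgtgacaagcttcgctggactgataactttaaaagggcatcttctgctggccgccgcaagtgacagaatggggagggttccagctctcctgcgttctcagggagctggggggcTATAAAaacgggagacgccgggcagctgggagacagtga
Actg1: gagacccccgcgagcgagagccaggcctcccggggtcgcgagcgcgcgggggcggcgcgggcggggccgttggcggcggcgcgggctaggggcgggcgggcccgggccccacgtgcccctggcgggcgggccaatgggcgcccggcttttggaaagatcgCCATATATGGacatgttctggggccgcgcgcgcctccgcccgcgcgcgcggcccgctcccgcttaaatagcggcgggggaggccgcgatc
Myl3: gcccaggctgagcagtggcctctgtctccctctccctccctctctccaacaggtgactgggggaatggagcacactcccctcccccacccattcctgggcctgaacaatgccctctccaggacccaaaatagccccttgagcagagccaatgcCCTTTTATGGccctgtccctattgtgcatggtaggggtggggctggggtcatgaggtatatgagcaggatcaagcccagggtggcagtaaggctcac
Fhl1: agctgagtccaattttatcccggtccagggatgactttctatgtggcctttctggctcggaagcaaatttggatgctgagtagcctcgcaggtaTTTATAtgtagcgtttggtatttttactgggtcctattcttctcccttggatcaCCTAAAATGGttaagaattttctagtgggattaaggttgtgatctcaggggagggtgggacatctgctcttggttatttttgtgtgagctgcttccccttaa
Acta1: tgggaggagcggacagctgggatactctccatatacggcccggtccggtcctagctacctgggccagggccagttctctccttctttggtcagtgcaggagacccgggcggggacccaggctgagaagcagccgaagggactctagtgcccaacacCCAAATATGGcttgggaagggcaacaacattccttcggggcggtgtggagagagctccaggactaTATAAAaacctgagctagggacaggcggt
The Nppa sequence holds TATAAA from 39 to 34 bases before the start and that of Acta1 from 29 to 24, both on the gene's strand. In Fhl1, for which the table lists 2 starts, the capitals further upstream are TATAAA on the opposite strand. The CArG box begins 90 bases before the start in Actg1, 97 in Myl3, 102 in Fhl1 and 94 in Acta1. Of the 7 contractile genes with a match, positions are given for these 4 alone.

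Of 10220 symbols taken, 8307 had such a sequence, which covers 250 bases before to 50 after the start. The CArG box stood on either strand in 7 of 51 promoters of contractile genes at 1 FPKM or more (13.7%). They were those of Actc1, Actg1, Myl3, Fhl1, Acta1, Fhl2 and Ldb3. The match in Actc1 did not lie wholly within the 250 bases before the start. The CArG box stood in 1 of 60 promoters of metabolic, 0 of 46 of channel and 0 of 54 of receptor genes. The share over all 27457 promoters, 1 per symbol, was 1.64%. These matches are a description of letters, with no test, and say nothing of binding.

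TATAAA on either strand was found in 16 of 74 promoters of the 100 highest genes (21.6%), in 10.2% at ranks after 100 and up to 1000, in 6.10% of the others at 1 FPKM or more and in 20.6% below 1 FPKM. Over all promoters it was 14.3%. The share was thus high at both ends of the abundance scale and low in between. On the gene's strand within 50 bases before the start, where a TATA box acts, the shares were 12.2%, 3.72%, 1.20% and 5.38%, against 2.46% over all. GGGCGG, the core of the GC box, stood on either strand in 59.5%, 69.8% and 64.1% of the same 3 groups at 1 FPKM or more and in 25.3% below 1, with 34.9% over all. CCAAT on either strand stood in 29.7%, 41.2%, 37.7% and 37.4%, near the 37.7% over all except in the first group.

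Genes of glycolysis and of oxidative metabolism were both abundant. All 12 glycolysis genes, all 16 of the citrate cycle and beta-oxidation and all 21 measured nuclear genes on the list of the respiratory chain reached 1 FPKM, with medians of 313, 119.8 and 299. The list of respiratory chain genes was led by Atp5b at 1858 FPKM, the catalytic subunit of ATP synthase, and the list of the citrate cycle by Mdh2 at 399, malate dehydrogenase. Genes of the mitochondrial genome are not analysed here.

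In glucose uptake and breakdown, several families of the mixed culture were led by a widely expressed form and not by the form of adult muscle. Which cells carried these forms was not tested. The transporter Slc2a1 stood at 43.1 FPKM, above Slc2a3 at 17.7 and Slc2a4, the insulin-responsive transporter of adult muscle, at 12.4, with Slc2a8 at 11.1. Hexokinase Hk1 held 89.3% of its family, against 14.8 FPKM of Hk2, and Pfkp, at 132, stood above the muscle phosphofructokinase Pfkm at 44.5 and Pfkl at 31.8. For Pgam1 the share was 95.1%, with the muscle form Pgam2 at 14.6 FPKM, and for Eno1 it was 96.5%, with the muscle form Eno3 at 17.3. Aldoa (98.8%, 1121 FPKM), Pkm (574 FPKM) and Gys1 (31.9 FPKM), which adult muscle also uses, were nearly alone in their families.

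Other families were mixtures of a muscle form and a general form. Muscle creatine kinase Ckm stood at 152 FPKM and the brain form Ckb at 113, far above the mitochondrial forms Ckmt1 (11.9) and Ckmt2 (5.01), the latter being that of striated muscle. Lactate dehydrogenase Ldha, at 621 FPKM, was above the heart form Ldhb at 422, and the phosphorylases Pygm and Pygb were listed at 84.6 and 59.8. Of the lactate carriers, Slc16a1 stood at 49.3 and Slc16a3 at 19.1 FPKM. Pyruvate dehydrogenase kinase, which holds back glucose oxidation, was mainly Pdk2 at 30.03 FPKM, with Pdk1 at 12.6, Pdk3 at 9.47 and Pdk4 at 4.06.

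In fatty acid use, the binding protein of heart muscle, Fabp3, stood at 667 FPKM, on a locus shared with another row, and the general form Fabp5 at 457. The carnitine palmitoyltransferase of muscle, Cpt1b, at 33.9 FPKM, stood above the liver form Cpt1a at 16.3, with a ratio of 2.07. Acyl-CoA synthetases were led by Acsl5 (75.5), ahead of Acsl3 (37.7), Acsl1 (26.2), the main form of the adult heart, and Acsl4 (20.98). Acaca (15.3 FPKM) stood above Acacb (7.33), the form that regulates oxidation in muscle. The muscle form thus led for binding and mitochondrial entry and did not lead for activation or carboxylation.

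Cytochrome oxidase transcripts included both general and muscle subunits. Cox6a1 stood at 1213 and the heart form Cox6a2 at 1012 FPKM, Cox8a at 1057 and the heart form Cox8b at 265, and Cox4i1, at 1066, held 98.99% of its pair. The nucleotide carrier of heart and muscle, Slc25a4, was at 739.7 FPKM and the general Slc25a5 at 356. Ucp2, at 95.04, was the lone uncoupling protein above 1 FPKM, Ucp3 of muscle being listed at 0. Among the energy sensors and coactivators, Prkaa2 stood at 17.4, Prkaa1 at 10.5, Prkag1 at 48.9 and Prkag2 at 20.2, while Pprc1 (26.1) was above Ppargc1a (8.09) and Ppargc1b (7.88). Mitochondrial Idh2 (359 FPKM) led Idh3g (126), Idh1 (81.2) and Idh3a (73.2).

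**Figure D3:**
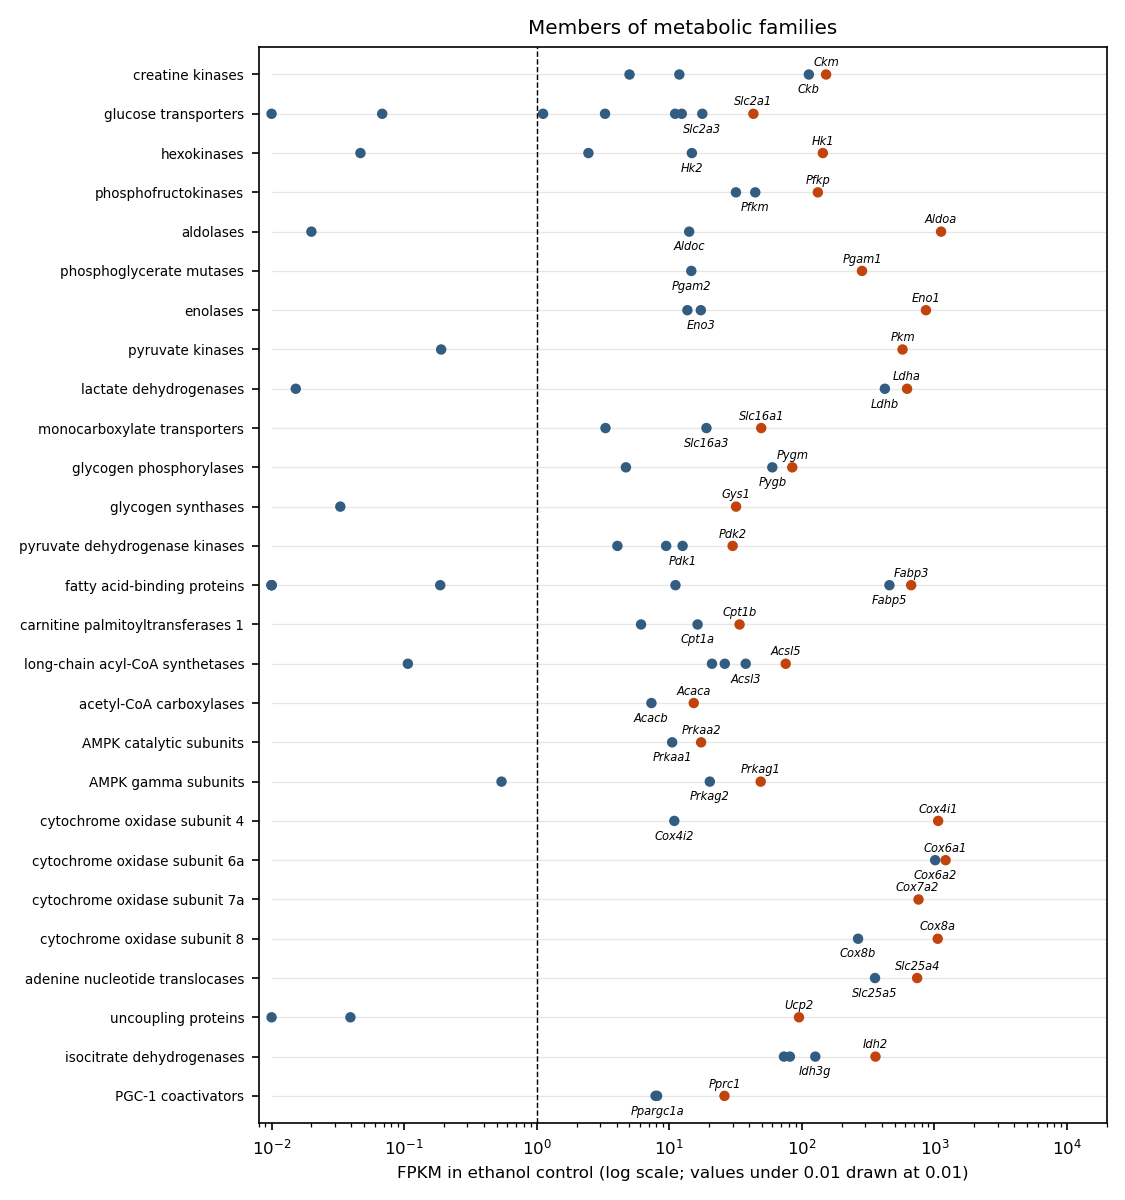
FPKM in the ethanol control (x axis, log scale) of the measured members of metabolic families (1 line per family shown), with the highest member in orange, the others in blue and a dashed line at 1 FPKM. Aldoa, Pgam1 and Eno1 stand far to the right of their relatives, while Ckm and Ckb, at 152 and 113 FPKM, and Cox6a1 and Cox6a2, at 1213 and 1012, lie close together.

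Calcium channel transcripts were spread over several members. The T-type channel Cacna1g, used in pacemaking and in the fetal heart, stood at 27.6 FPKM, above Cacna1c, the L-type channel that starts contraction, at 12.3. Another T-type channel, Cacna1h, stood at 11.9 and the skeletal L-type channel Cacna1s at 7.51. Their partners were Cacnb3 (24.5), Cacnb2 (12.6), Cacna2d1 (18.7) and Cacna2d2 (7.23).

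The pacemaker channel Hcn4, at 6.67 FPKM, and Hcn2, the main ventricular form, at 4.85, were both present. Among inward rectifiers, Kcnj5, a subunit of the acetylcholine-activated channel, stood at 10.6, the ATP-sensitive pore Kcnj11 at 8.70 and Kcnj2, which holds the resting potential of ventricular cells, at 4.63. The sulfonylurea receptors that accompany Kcnj11 were listed at 7.90 for Abcc9 and 5.99 for Abcc8. Repolarizing channels were led by Kcnq1 (14.6) and Kcnh2 (13.7), with Kcnd3, which carries transient outward current, at 6.23. Kcne4 (19.6) led the accessory subunits ahead of Kcnip2 (2.83), and the leak channels were Kcnk2 (7.77), Kcnk6 (6.18) and Kcnk3 (4.61).

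Cardiac forms led the families of calcium storage and release. The pump Atp2a2 stood at 463 FPKM, 99.7% of its family, and its inhibitor Pln at 349.7, against 29.3 for Sln, the inhibitor of atrial and skeletal muscle. The release channel Ryr2 was at 27.2, and Ryr1 and Ryr3 are not analysed here. Casq2 (324 FPKM) led Casq1 (60.1), the skeletal form, Jph2 (73.2) led Jph1 (3.43), and Slc8a1, the exchanger that removes calcium, was at 117 with its relatives below 1. Itpr1 (18.95), Itpr3 (4.001), Atp2b1 (19.6) and Atp2b4 (11.3) were all below Ryr2. Camk2d (50.6 FPKM), the main calcium-dependent kinase form of the heart, led Camk2g (23.2).

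Among beta subunits of the sodium pump, Atp1b1 (207 FPKM) led Atp1b3 (125). The pump's regulator Fxyd1, phospholemman, stood at 234, ahead of Fxyd5 (76.3) and Fxyd6 (40.7). Gap junction genes were led by Gja1 (127), connexin of the working ventricle, with Gjc1 at 33.8 and Gja5, of atria and conduction fibres, at 22.8.

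Receptors stood at low levels compared with contractile genes. Adrb1, the main cardiac beta-adrenergic receptor, was at 5.85 FPKM, and Adra1a (7.51) stood above Adra1b (3.27) and Adra1d (1.34), with all 3 alpha-2 receptors below 1. The vagal receptor Chrm2 was higher, at 24.2 (94.7%), as was the endothelin receptor Ednra at 18.8, against 1.82 for Ednrb. Agtr1a stood at 2.03 and Adora1 at 2.04. The highest receptor of these hormone families was Ptgfr, for prostaglandin F2-alpha, at 85.4 (84.8% of prostanoid receptors), with Ptger1 next at 9.39. The receptors of natriuretic peptides were Npr2 (11.7), which binds the C-type peptide, Npr3 (8.45), which clears them, and Npr1 (4.89), the receptor of Nppa and Nppb. Nppb itself stood at 1369 FPKM. The receptor of Nppa, the most abundant transcript with a level, was thus the lowest of its family.

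Of the nuclear receptors, the glucocorticoid receptor Nr3c1, which binds Dex, stood at 19.7 FPKM on a shared locus and the mineralocorticoid receptor Nr3c2 at 2.17, with androgen, estrogen and progesterone receptors below 1. Thyroid hormone drives postnatal maturation of the heart, and its receptor Thra was at 36.6 while Thrb was at 0.933. Ppard (17.3) led Ppara (3.33) and Pparg (1.32), Esrra (29.9) led Esrrg (10.4), Rxra (20.1) and Rxrb (18.1) were close, and Rara (26.4) led Rarg (16.05).

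Growth factor receptors were led by Igf2r, which clears IGF2, at 183 FPKM, with Igf1r at 14.8 and Insr at 12.6. Fgfr1 stood at 48.6, Il6st, the shared receptor of the interleukin-6 family, at 47.9 with Osmr at 16.8, and Tgfbr2 at 41.1. Erbb2 (25.3) was higher than Erbb4 (1.52), its partner for neuregulin in heart muscle, and Bmpr1a (31.6) led Bmpr2 (22.1). Toll-like receptors were low, with Tlr2 the highest at 3.25.

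**Figure D4:**
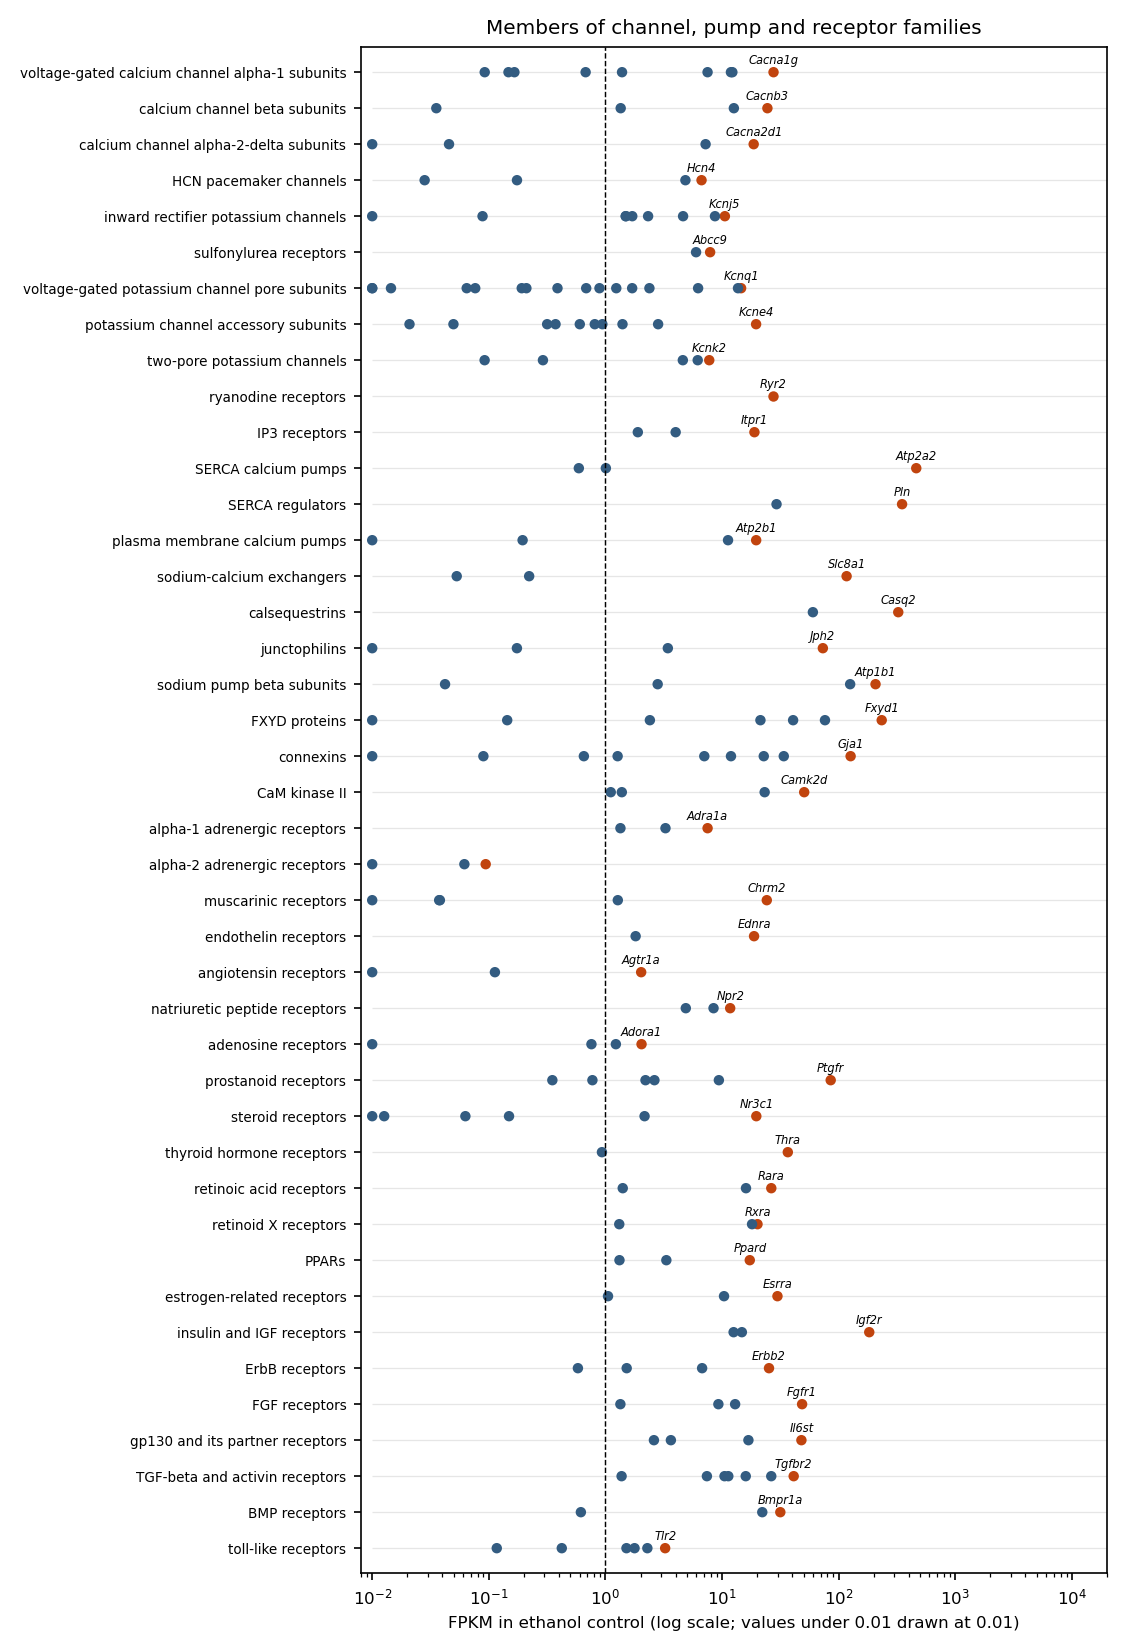
FPKM in the ethanol control (x axis, log scale) of the measured members of channel, pump and receptor families (1 line per family shown), with the highest member in orange, the others in blue and a dashed line at 1 FPKM. Atp2a2, at 463 FPKM, and Pln, at 349.7, lie far to the right, and most receptors lie between 1 and 100.

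Transcription factors of the heart were present at moderate levels. Hand2 stood at 107 FPKM, Gata4 at 93.5, Tead1 at 64.5, Srf at 53.9, Nkx2-5 at 42.2 and Tbx20 at 40.9, with Mef2d and Mef2a at 39.00 and 38.3. Mef2c is not analysed here. Of the 8 atrial-type genes 7 reached 1 FPKM, Bmp10 being the exception, and all 7 ventricular-type genes did. Nppa, though named for the atrium, is made by ventricles before birth and under strain.

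All 15 measured cardiomyocyte markers reached 1 FPKM, with a sum of 35349 FPKM, which was 5.41% of all genes, and 14 of them stood among the 1000 highest genes. Ryr2, the exception, was at 27.2. None of the measured defining markers of the labelled cell type was absent. Ttn is not analysed here. In a pool of cells, fewer cells of a type and less RNA per cell cannot be told apart, so the sums below are not shares of cells.

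Mesenchymal and vascular wall markers were the most abundant of the other types. All 11 fibroblast markers with a level reached 1 FPKM, led by the collagens Col3a1 (2079) and Col1a2 (1876), then Postn (376) and Ddr2 (65.7), and their sum was 4593. All 12 smooth muscle and pericyte markers did too, with a sum of 9323, mostly from Acta2 and Tagln. Acta2, which immature heart muscle cells also make, held 51.6% of that sum and Tagln 37.4%. Which cells carried these 2 genes was not tested. Without genes that myocytes or other lists share, 9 of these markers were counted. Mcam stood at 363, Pdgfrb at 224, Cnn1 at 131 and Notch3 at 88.7, and Myh11, the defining heavy chain of smooth muscle, at 70.9. Fibroblast markers thus included genes at over 1000 FPKM after a preparation that removes non-myocytes.

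Endothelial and macrophage markers were present at much lower levels. Of 13 endothelial markers 12 reached 1 FPKM, with Esam at 23.3, Flt1 at 15.97, Cdh5 at 14.4 and Tie1 at 11.7, and a sum of 103. Of 14 macrophage markers 13 did, with Lyz2 at 78.2, Tyrobp at 26.9, Fcer1g at 23.7 and Cd68 at 20.2, and a sum of 192. Kdr and Vwf, widely used endothelial markers, stood at 2.11 and 1.63, and the pan-leukocyte gene Ptprc at 1.94. Epicardial and mesothelial markers reached 1 FPKM in 7 of 9, among them Krt18 at 32.8, Aldh1a2 at 18.02, Msln at 17.5 and Krt8 at 9.10.

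Blood lineages gave a mixed picture. Hemoglobin genes were at 48.2 for Hba1, 38.1 for Hbb, 33.4 for Hba2 and 8.75 for Hbb-b1, while the other 5 measured erythroid markers, which include the heme synthesis enzyme Alas2 (0.124), stayed below 1. The platelet chemokine Pf4 stood at 32.2, whereas Ppbp and Gp9 were listed at 0, and Gp1bb, at 35.9, sits in a row joined with a neighbouring gene. Lymphocyte markers were below 1 in 8 of 9, the highest of these being Cd3g at 0.210, with Cd3e, Ms4a1, Cd79b and Nkg7 listed at 0, and only Cd4, which rat macrophages also carry, above 1 at 3.15. Of the mast cell markers only Kit (4.19) passed 1, and Fcer1a was listed at 0.

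Markers of nerve, fat and skeletal muscle were mostly below 1 FPKM. Schwann cell and glial markers reached it in 3 of 7, among them Mbp (2.87) and S100b (1.27), and neuronal ones in 2 of 7, Tubb3 (38.2) and Dbh (1.16). Adipocyte markers did so in 1 of 6, Fabp4 (11.1), with Adipoq at 0.00960, and skeletal muscle markers in 1 of 9, Myh1 (1.25), with Pax7 listed at 0. All 12 proliferation genes reached 1 FPKM, led by Cdk1 (99.1), Rrm2 (73.1), Ccnb1 (41.95) and Ccna2 (35.5), with Mki67 at 16.6 FPKM. Which cells carried them cannot be told from the pool.

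**Figure D5:**
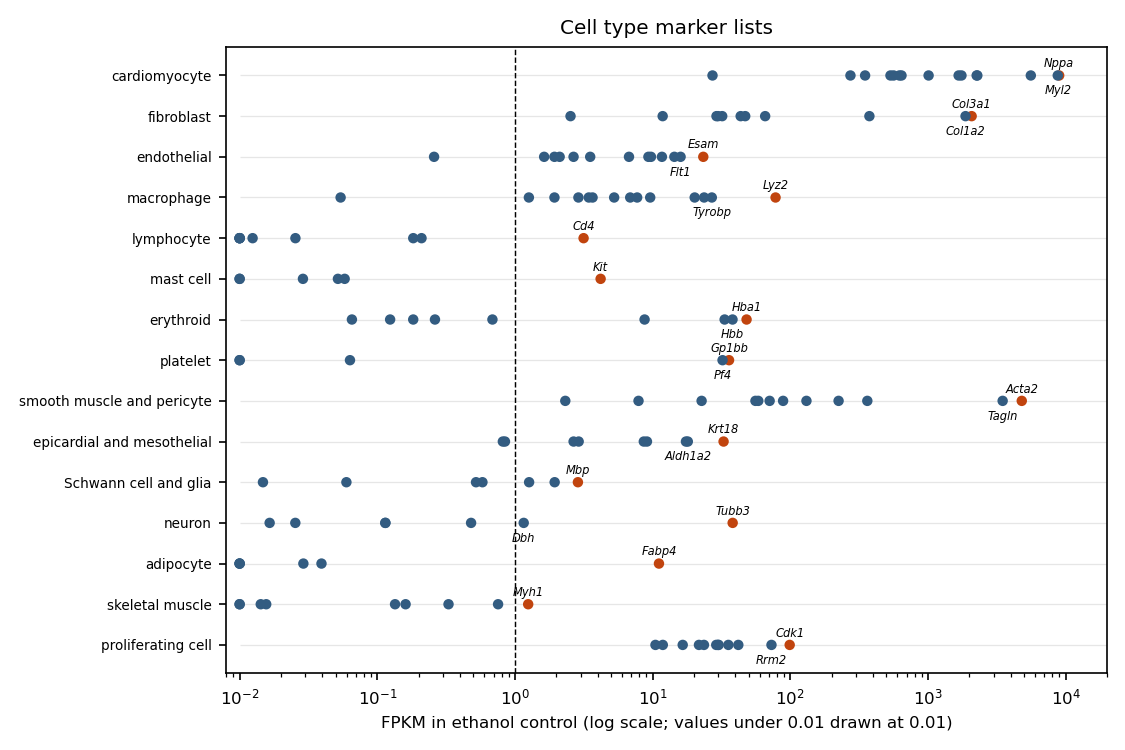
FPKM in the ethanol control (x axis, log scale) of every measured marker of 15 cell type and state lists (1 line per list), with the highest marker in orange, the others in blue, a dashed line at 1 FPKM and values under 0.01 drawn at 0.01. Cardiomyocyte, fibroblast and smooth muscle markers reach past 1000, endothelial markers end at 23.3 (Esam), and most lymphocyte and mast cell markers lie below 1.

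The baseline was then set beside the Dex groups. In the authors' deposited table, significance marks compare these samples, and both comparisons share the ethanol control whose value chose the genes, so the counts are read only as a description. At 1 h, 92 of 10472 tested genes at 1 FPKM or more were called, beside 0.863% of all genes tested, with 28 of them lower, beside 0.242%. At 24 h 595 of 10471 were called, beside 6.22%. Of the genes taken, 71 were under 1 FPKM at 1 h and 194 at 24 h, while 77 and 204 others reached it. Of the 100 highest genes 94 remained among the 100 highest at 1 h and 92 at 24 h. Of the 309 genes of the contractile, metabolic, channel and receptor lists tested at 24 h, 44 were called.

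The highest member of a family was the same in all 3 groups in 78 of 92 families and another one in 14, of which 2 changed at 1 h and 13 at 24 h, 1 family at both. In the authors' deposited table, at least 1 of the 2 members that exchanged places was called in 8 of these families. Over all tested genes, 0.863% were called at 1 h and 6.22% at 24 h. An exchange needs a change in the same values that gave the calls, so the 8 are a description only. In the other 6 families neither member was called, so that there the order turned on differences the authors did not call. Those 6 were troponin I, actinins, alpha-1 adrenergic, adenosine, retinoid X and toll-like receptors. Tnni3 went from 563 FPKM to 544 at 1 h and 505 at 24 h, and Tnni1 from 497 to 455 and 519.

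Among the exchanges with a call, Ckm stood at 152 FPKM in the control, 129 at 1 h and 43.9 at 24 h, below Ckb at 124. Fabp3 stood at 667, 600.2 and 294, below Fabp5 at 441 at 24 h, and Myom2 at 92.2, 79.7 and 43.8, below Myom1 at 52.2. In these 3 families the control's highest member was called lower in the authors' deposited table. Hcn4, called lower in the authors' deposited table, stood at 6.67, 5.15 and 2.14, below Hcn2 at 3.72. Cacna1h, called higher, stood at 11.9, 12.6 and 31.3, above Cacna1g at 17.9, and Kcne1, also called higher, at 0.603, 0.356 and 15.9, above Kcne4 at 11.4. At 1 h, Pdk4 went from 4.06 to 32.8, above Pdk2 at 25.4, and was called at 1 h in the authors' deposited table.

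Markers of other cell types were among the calls, in both directions. The authors' deposited table called 7 of 13 tested endothelial markers at 24 h, all higher, beside 4.18% called higher over all genes, and their sum went from 103 FPKM to 171. For macrophage markers it called 5 of 14 higher and 1 lower, beside 2.04% called lower over all genes, with sums of 192 and 286. Lyz2, not called, held 40.8% of the first sum and 44.2% of the second. The 4 hemoglobin genes were called higher at both times, with list sums of 129.7 in the control, 269.5 at 1 h, beside 0.622% called higher over all genes, and 281 at 24 h. In the authors' deposited table fibroblast markers had 2 of 11 called, both higher. The list's sum was 4593 FPKM in the control and 3765 at 24 h, and its median 43.6 and 53.1. Most of that sum came from Col3a1 (2079 in the control, 1537 at 24 h) and Col1a2 (1876 and 1592), neither of them called. Smooth muscle and pericyte markers had 1 called higher and 2 lower in the authors' deposited table, with sums of 9323 and 10039. Those of the epicardial and mesothelial list had 1 higher and 1 lower, with sums of 93.3 and 64.2. Krt18 alone held 35.2% of that list's sum in the control and 10.7% at 24 h. Of the proliferating cell markers, the authors' deposited table called 1 of 12, lower, with sums of 423 and 339. The part of other cells in the baseline levels was not tested. For cardiomyocyte markers, 2 of 15 were called at 24 h, both lower, Myl2 going from 8776 FPKM to 2456 and Mb, myoglobin, from 274 to 38.7.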

How the data were processed

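RNA sequencing of 3 samples of neonatal rat ventricular myocytes, 1 per group, was used. The submitters' processing notes name TopHat, Cufflinks and Cuffdiff and the rat build rn5, but hold no version and no role for any tool. No source used here states annotation, strand handling or library scaling. The authors deposited 1 FPKM per gene and group, per the file headers, with a p-value and q-value for each Dex group against control. Depth is unknown, so no interval or floor was computed. No test was run, since there are no replicate values, and calls are the authors' significance mark. The 6 per-sample columns of a ChIP experiment of another series were not used.

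Gene levels are rows of the table. A symbol with several rows took its highest, and rows marked by the authors as having too many fragments were left out. 16 symbols among the genes taken had been turned into dates by a spreadsheet and were not named. Members and lists were chosen with earlier results of these data known. The 119 lists held 636 entries, of which 618 matched the table, 3 through a former name. A further 4 lists with 79 entries were written after some values had been seen. Named genes were the 30 highest, per family the 2 highest members and any at 0.1 or more of the highest value, per cell type the 4 highest, and 3 on each side of the threshold. Genes named beside these, mostly members below 1 FPKM and known paralogs or markers, were chosen after their values were seen. A few genes and families within this rule are left unnamed but are counted in every total. Family shares are FPKM over the summed FPKM of the family. Motifs were searched in RefSeq promoters of GRCr8, matched by symbol, as exact letters on both strands, and may overlap each other. The search and the ranking were tested on simulated data. Python 3.11.15, pandas 2.3.3, numpy 2.4.6 and matplotlib 3.10.9 were used. Alternatives covered the threshold, the gene unit, shared and short rows, the share that counts as leading and the motif window.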

Additional observations from a re-analysis of the deposited data

How the results depend on the processing

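Over 26 results and 72 alternatives, 57 values stayed within 1.5-fold of the reported one, a limit chosen here because no replicate spread exists, and 15 moved further. At 5 FPKM in place of 1, markers counted numbered 7 for endothelial cells, 8 for macrophages, 1 for neurons and 0 for lymphocytes, mast cells, Schwann cells and skeletal muscle. At 0.5 FPKM they numbered 5 for Schwann cells and 2 for skeletal muscle, and without genes that myocytes or other lists share the adipocyte count was 0. TATAAA on the gene's strand within 50 bases before the start, an alternative chosen after seeing the data, gave 12.2%, 3.72% and 1.20% for the 3 groups at 1 FPKM or more, 5.38% below 1 and 2.46% over all, by construction fewer matches. The genes taken numbered 11031 at 0.5 FPKM, 9743 at 2 and 8450 at 5, and families led at 70% or 90% numbered 39 and 23 in place of 29. Without members of shared locus or symbol 33 families had such a leader. That count covers only families left with at least 2 members, so it is not out of 92. It can also rise where an abundant member is dropped, and Myh7 and Myh6 were among those dropped. The highest member was the same in 80 of 92. The control values did not differ between both deposited tables. Depth is unknown, so its limit on low values could not be computed. No replicate was left out because the table holds 1 value per group. No paired analysis was possible because each group is a single sample with 1 value per gene.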

Other observations

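The culture transcribed extracellular matrix at high levels. In a list written after the files had been seen, all 19 measured genes reached 1 FPKM and 17 stood among the 1000 highest, with a sum of 14336 FPKM, 2.20% of all genes. Sparc (2833 FPKM) and Ctgf (2392) led, followed by Col4a1 (1622), a chain of basement membrane collagen, Thbs1 (1398), an adhesive glycoprotein that activates TGF-beta, and Bgn (1305), a small proteoglycan. Fibronectin, Fn1, stood at 939, the elastin gene Eln at 440.1 and the gelatinase Mmp2 at 139.6. Col1a1 carries no level.

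Of 28 secreted factors in a second added list, 27 reached 1 FPKM, with Il6 at 0.168 the exception. Fstl1, a follistatin-like glycoprotein, stood at 905 FPKM and Tgfb3 at 462, above Tgfb2 (111) and Tgfb1 (50.2). Vegfa, the main angiogenic factor, was at 107 and endothelin, Edn1, at 34.3, beside its receptor Ednra at 18.8. Among 16 measured imprinted genes, which can be transcribed from a single parental copy, 14 reached 1 FPKM. They were led by Gnas (616), Igf2r (183), Grb10 (99.2) and the noncoding RNA H19 (87.9). These levels do not tell the parental copies apart. Igf2, the fetal growth factor next to H19, stood at 29.1 FPKM in a row whose locus or symbol is shared. Genes of X inactivation and of the Y chromosome, the fourth added list, are not analysed here.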
